A study of Mus musculus with 12 samples.

Results

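The red cell genes described here are 9 genes whose transcripts red blood cells carry or whose products make haemoglobin: the globins Hba-a1, Hba-a2, Hbb-bs and Hbb-bt, the haem synthesis genes Alas2 and Fech, the mitochondrial iron importer Slc25a37, the metabolic enzyme Bpgm and the exonuclease Isg20. They were chosen by name among the 24061 gene identifiers of the count table, after they had been noticed for high values in 1 wild-type heart, W2. Because those values chose the genes, their levels in the 12 hearts are given as a description. Hba-a1 and Hba-a2 hold the same count in all 12 libraries and were taken once, which leaves 8 separate rows.

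The libraries came from whole hearts of male mice aged 4 months. The 6 knockout hearts, K7 to K12, were Slc4a4flx/flx(Cre): both Slc4a4 alleles were floxed, and a Cre recombinase under the β-myosin promoter, brought in from a C57Bl6 mouse, deletes exon 12 in cardiac myocytes. The 6 hearts labelled wild type, W1 to W6, were Slc4a4flx/flx without Cre, so both groups carried the floxed alleles and the effect of the deletion cannot be told apart from that of Cre. Slc4a4 encodes NBCe1, a sodium bicarbonate cotransporter. RNA was sequenced as total RNA, and no label mentions removal of blood from the hearts or of globin transcripts from the RNA.

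Mature mammalian red cells have no nucleus, but the youngest of them, the reticulocytes, still hold messenger RNA from the marrow, most of it for the alpha and beta chains of haemoglobin. Haem is made in mitochondria: Alas2 begins the pathway in red cell precursors, Slc25a37 brings in iron and Fech places the iron in the ring. Any blood left in a dissected heart therefore adds globin transcripts to the RNA of the tissue, and the same blood also brings platelets and white cells.

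Library totals ran from 10631869 to 13327519 counts. Slc4a4, the deleted gene, averaged 49.9 ± 11.4 CPM (counts scaled to a library total of 1000000) in knockout hearts and 87.1 ± 18.6 CPM in wild-type hearts (SD, n = 6 each). In all, 3 libraries stood apart in ways that touch the red cell genes. W2 and W3 had the highest and the next highest globin levels of all 12 hearts, and K7 had the highest of the knockouts. K7 also had the highest sum over a list of 7 liver genes, at 74.7 CPM, against 2.32 to 12.1 CPM in the other knockouts and 0.310 to 1.56 CPM in wild type.

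The globin genes lie in 2 clusters in GRCm38 (RefSeq annotation). Hba-a1 spans chr11:32283672-32284486 and Hba-a2 spans chr11:32296492-32297310, and both encode the adult alpha chain. Hbb-bs spans chr7:103826523-103827928 and Hbb-bt spans chr7:103812524-103813923, and both encode the adult beta chain. The coding sequences of each pair are shown around the base at which they differ, because that base bears on how far the counts of the copies can be separated. In the GENCODE M21 transcripts the alpha pair differs at 1 of 429 coding bases and the beta pair at 1 of 444, which is 99.8% identity for each. The capital marks the base that differs, in coding bases 351 to 411 of the alpha pair and 384 to 444 of the beta pair.
Hba-a1: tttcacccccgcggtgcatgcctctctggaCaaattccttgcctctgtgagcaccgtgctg
Hba-a2: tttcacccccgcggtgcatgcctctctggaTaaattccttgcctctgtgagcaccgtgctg
Hbb-bs: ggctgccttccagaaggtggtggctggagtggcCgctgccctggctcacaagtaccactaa
Hbb-bt: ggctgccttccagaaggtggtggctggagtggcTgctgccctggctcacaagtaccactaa
The longest run of identical coding bases was 380 in the alpha pair and 416 in the beta pair. No source used here says how reads matching both copies were counted, so the split between copies is uncertain. The table also has rows for Hbb-b1 and Hbb-b2, the beta-globin names of other mouse haplotypes, and these repeat the counts of Hbb-bs and Hbb-bt in all 12 libraries.

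The adult globins took up more of the W2 library than of any other. Hba-a1, with 9512 to 72100 reads per heart, had 1971, 1254, 1182, 881.7, 1089 and 883.5 CPM in knockouts K7 to K12, against 1360, 5410, 2454, 1401, 1321 and 944.5 CPM in wild-type hearts W1 to W6. W2 lay 4.31 times above the median of the other 11 hearts, W3 was the next highest and K7 the third, and the groups overlapped. Hbb-bs, the most abundant of the globins, had 4052, 2640, 2653, 1528, 1884 and 1851 CPM in knockouts K7 to K12, against 2401, 11287, 4987, 2105, 2466 and 2000 CPM in wild-type hearts W1 to W6. Its order at the top was the same, with W2 at 4.70 times the median of the other hearts. Hbb-bt had 2769, 1877, 2071, 1237, 1471 and 1383 CPM in knockouts K7 to K12, against 1750, 7013, 4047, 1430, 1864 and 1708 CPM in wild-type hearts W1 to W6. W2 was 4.01 times the median of the others, and apart from W2 and W3 the wild-type values lay within the range of the knockouts.

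Group means of the globins were lower in knockout, with a spread in wild type that W2 set. Hba-a1 averaged 1210 ± 403 CPM in knockout and 2148 ± 1676 CPM in wild type (SD, n = 6 each), and the wild-type mean without W2 was 1496 ± 566 CPM (n = 5). For Hbb-bs the means were 2435 ± 914 CPM in knockout and 4208 ± 3642 CPM in wild type, or 2792 ± 1243 CPM without W2. For Hbb-bt they were 1801 ± 569 CPM in knockout and 2969 ± 2199 CPM in wild type, or 2160 ± 1067 CPM without W2. In each of these comparisons the wild-type SD was larger than the difference between the means. In whole-heart RNA, fewer red cells and less RNA per red cell cannot be told apart.

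As a share of all counts, adult globins made up 0.545 ± 0.187% of knockout libraries and 0.932 ± 0.749% of wild-type libraries (SD, n = 6 each). For this share the equal alpha rows and the equal beta rows were taken once, while the library total kept every row. The lowest and highest knockouts were K10 at 0.365% and K7 at 0.879%. Among wild types W6 was lowest at 0.465%, W3 reached 1.15% and W2 reached 2.37%. Without W2 the wild-type share was 0.645 ± 0.285% (n = 5), and the difference from the knockout mean was smaller than the SD of either group.

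**Figure D1:**
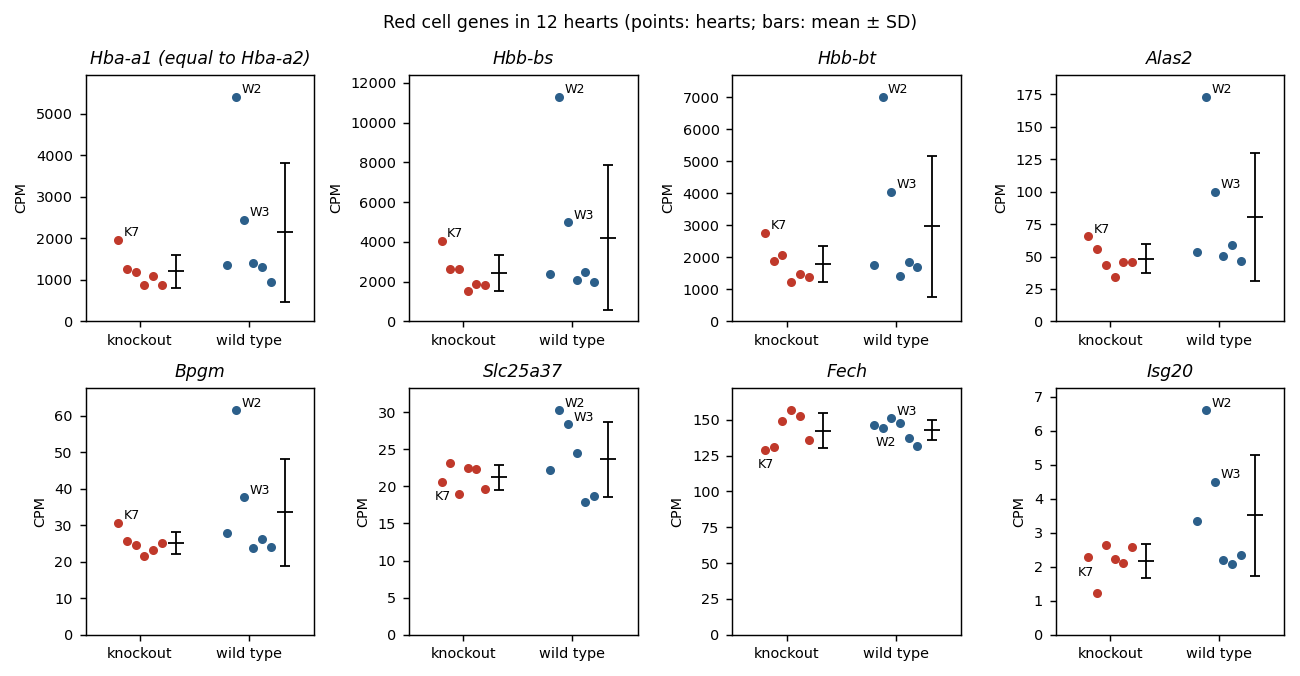
Levels of the 8 separate red cell gene rows, in CPM, in knockout hearts (left, red) and wild-type hearts (right, blue); each point is a heart, and the bars give the mean and SD of 6 hearts. W2 is the highest point for every gene but Fech, with Hbb-bs at 11287 CPM, while Fech runs from 128.8 to 156.6 CPM with no heart apart.

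The ratios among globins varied far less than the levels. Hbb-bt gave 0.752 ± 0.048 reads per Hbb-bs read in knockout and 0.742 ± 0.085 in wild type (SD, n = 6 each), from 0.621 in W2, the lowest heart, to 0.854 in W6. Hba-a1 gave 0.289 ± 0.028 reads per beta-globin read in knockout and 0.308 ± 0.050 in wild type, from 0.250 in K9 to 0.396 in W4. The highest ratio was 1.37 times the lowest for the beta pair and 1.58 times for alpha over beta. How reads matching both beta copies were counted is not known, so the beta rows may not be separate measures. Alpha and beta chains thus moved together from heart to heart, and the group means of both ratios differed by less than their SDs.

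Embryonic globins were not seen. Hba-x, Hbb-y, Hbb-bh1 and Hbb-bh2 had 0 reads in all 12 libraries, while the theta-like Hbq1a and Hbq1b had 6 and 4 reads in the 6 knockout libraries and 22 and 10 in the 6 wild-type libraries. Other haem proteins were read beside them. Mb, the oxygen store of muscle, averaged 6183 ± 208 CPM in knockout and 6093 ± 305 CPM in wild type, and Cygb, the cytoglobin of connective tissue cells, averaged 36.4 ± 4.02 CPM in knockout and 35.3 ± 2.46 CPM in wild type. W2 ranked 8 of 12 for both, and r with Hbb-bs over 12 hearts was 0.53 for Mb and -0.15 for Cygb.

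Alas2 encodes the red cell form of 5-aminolevulinate synthase, which makes the first precursor of haem, and lies at chrX:150547417-150570622. It had 65.7, 56.1, 43.3, 34.3, 45.6 and 45.7 CPM in knockouts K7 to K12, against 53.2, 172.8, 99.8, 50.1, 58.9 and 46.3 CPM in wild-type hearts W1 to W6. W2 and W3 again lay above all other hearts, with W2 at 3.45 times the median of the other 11. Of the 6 knockouts, 4 lay below every wild-type heart, and K7 and K8 lay within the wild-type range. The mean was 48.4 ± 10.9 CPM in knockout and 80.2 ± 49.4 CPM in wild type (SD, n = 6 each), or 61.7 ± 21.8 CPM in wild type without W2 (n = 5). Set against the globins, Alas2 gave 9.21 ± 1.52 reads per 1000 globin reads in knockout and 9.36 ± 1.18 in wild type, and W2 had the lowest ratio of all hearts, at 7.29.

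Promoter windows are shown for the globins, Alas2 and Bpgm, the enzyme gene described further on, whose levels moved together across hearts. Each is the 250 bases before the RefSeq start of the gene in GRCm38.p6, written 5′ to 3′ on the strand of the gene. Windows matched by symbol were used for 7 of the 9 genes, all but Slc25a37 and Fech. Capitals mark 3 motifs, each searched on both strands. They are CACCC, found in many globin promoters, the CCAAT box, and the GATA motif, taken as AGATAA or the same with T as its first letter or G as its last. No base belonged to more than 1 motif. The windows are chr11:32283422-32283671 on the plus strand for Hba-a1, chr7:103827929-103828178 on the minus strand for Hbb-bs, chr7:103813924-103814173 on the minus strand for Hbb-bt, chrX:150547167-150547416 on the plus strand for Alas2, and chr6:34476106-34476355 on the plus strand for Bpgm.
Hba-a1: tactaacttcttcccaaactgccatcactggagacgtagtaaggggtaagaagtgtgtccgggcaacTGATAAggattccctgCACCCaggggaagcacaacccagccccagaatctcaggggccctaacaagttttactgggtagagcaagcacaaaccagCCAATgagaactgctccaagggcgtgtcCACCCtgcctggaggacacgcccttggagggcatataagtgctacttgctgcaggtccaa
Hbb-bs: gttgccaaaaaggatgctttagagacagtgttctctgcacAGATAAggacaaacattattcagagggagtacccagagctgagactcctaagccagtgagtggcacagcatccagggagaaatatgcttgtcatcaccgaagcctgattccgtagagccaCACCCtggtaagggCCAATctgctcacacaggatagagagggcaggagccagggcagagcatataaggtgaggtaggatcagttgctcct
Hbb-bt: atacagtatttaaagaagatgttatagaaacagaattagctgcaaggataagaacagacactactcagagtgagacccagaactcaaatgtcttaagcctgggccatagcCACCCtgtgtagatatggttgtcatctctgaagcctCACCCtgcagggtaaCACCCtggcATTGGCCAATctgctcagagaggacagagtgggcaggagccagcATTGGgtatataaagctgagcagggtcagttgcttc
Alas2: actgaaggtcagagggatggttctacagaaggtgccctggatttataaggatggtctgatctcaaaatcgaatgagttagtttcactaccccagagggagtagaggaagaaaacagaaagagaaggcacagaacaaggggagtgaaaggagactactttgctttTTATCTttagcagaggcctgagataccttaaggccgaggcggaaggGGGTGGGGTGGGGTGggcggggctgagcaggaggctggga
Bpgm: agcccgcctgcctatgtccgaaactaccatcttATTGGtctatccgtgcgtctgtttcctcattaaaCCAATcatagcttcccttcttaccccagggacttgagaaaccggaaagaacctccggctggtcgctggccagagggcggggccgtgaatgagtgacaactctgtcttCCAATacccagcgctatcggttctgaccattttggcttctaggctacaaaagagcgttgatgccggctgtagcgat
Counting back from the start, with -1 as the base before it, the Hba-a1 window held a GATA motif beginning at -183, CACCC at -167 and -60 and CCAAT at -88. In Hbb-bs the GATA motif began at -210, CACCC at -90 and CCAAT at -76. Hbb-bt held 3 copies of CACCC and 3 of CCAAT and no copy of the 6-letter GATA motif. Alas2 held 1 GATA motif, 3 copies of CACCC and no CCAAT, and Bpgm held 3 copies of CCAAT and neither of the other motifs. The window of Hba-a2 shared a stretch of 247 identical bases with that of Hba-a1. Among 32851 windows of the same length, 26.5% held a GATA motif, 52.0% held CACCC, 33.9% held CCAAT and 3.92% held all 3. A match of letters is a description of the window and was not tested for binding or use.

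Slc25a37 encodes mitoferrin-1, which carries iron into mitochondria for haem synthesis, and lies at chr14:69241848-69285544. It had 20.6, 23.1, 19.0, 22.5, 22.4 and 19.6 CPM in knockouts K7 to K12, against 22.2, 30.2, 28.3, 24.5, 17.8 and 18.7 CPM in wild-type hearts W1 to W6. W2 and W3 were still the highest hearts, but W2 lay only 1.36 times above the median of the others and K7 ranked 8 of 12. The means were 21.2 ± 1.69 CPM in knockout and 23.6 ± 5.04 CPM in wild type (SD, n = 6 each), a difference smaller than the wild-type SD.

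Fech encodes ferrochelatase, the last enzyme of haem synthesis, and lies at chr18:64456542-64489098. It had 128.8, 131.3, 149.4, 156.6, 152.9 and 135.9 CPM in knockouts K7 to K12, against 146.3, 144.0, 150.9, 147.8, 137.5 and 131.6 CPM in wild-type hearts W1 to W6. Fech was not high in W2, which ranked 7 of 12 and lay at 0.984 times the median of the other hearts, so it goes against the reason for which the genes had been noticed. K7, high for globins, was the lowest heart for Fech. The means were 142.5 ± 11.9 CPM in knockout and 143.0 ± 7.18 CPM in wild type (SD, n = 6 each).

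Bpgm encodes bisphosphoglycerate mutase, which makes the 2,3-bisphosphoglycerate that lowers the oxygen affinity of haemoglobin, and lies at chr6:34476356-34505136. It had 30.7, 25.7, 24.6, 21.6, 23.1 and 25.1 CPM in knockouts K7 to K12, against 27.8, 61.5, 37.7, 23.8, 26.3 and 24.0 CPM in wild-type hearts W1 to W6. The order at the top was the one seen for the globins, W2, W3 and K7, with W2 at 2.45 times the median of the other 11 hearts. The means were 25.1 ± 3.09 CPM in knockout and 33.5 ± 14.6 CPM in wild type (SD, n = 6 each), or 27.9 ± 5.72 CPM in wild type without W2 (n = 5). Of the related mutases of glycolysis, Pgam1 averaged 82.0 ± 9.04 CPM in knockout and 91.3 ± 6.66 CPM in wild type. Pgam2, the muscle form, averaged 238.8 CPM in knockout and 237.7 CPM in wild type. W2 stood at 1.12 times the median of the other 11 hearts for Pgam1 and 0.988 times for Pgam2. Pgam1 still followed Hbb-bs, with r = 0.72 and rho = 0.83 over 12 hearts and r = 0.71 without W2 and W3. For Pgam2 these values were 0.10, -0.04 and -0.30.

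Isg20, an interferon-stimulated exonuclease that degrades single-stranded RNA, lies at chr7:78913396-78920396 and was the rarest of the genes, with 14 to 88 reads per heart. It had 2.27, 1.23, 2.63, 2.22, 2.11 and 2.59 CPM in knockouts K7 to K12, against 3.34, 6.60, 4.51, 2.20, 2.09 and 2.34 CPM in wild-type hearts W1 to W6. W2 was 2.90 times the median of the others and W3 the next highest, while K7 ranked among the middle hearts. The means were 2.18 ± 0.506 CPM in knockout and 3.51 ± 1.77 CPM in wild type (SD, n = 6 each), or 2.90 ± 1.03 CPM in wild type without W2 (n = 5). None of 13 other interferon response genes was called by edgeR, and none had an unadjusted p under 0.05. The 2 of them with the smallest p were Oas1a, which makes the activator of RNase L, at 2.34 CPM in knockout and 2.90 CPM in wild type, and Rsad2, the antiviral enzyme viperin, at 40.6 CPM in knockout and 45.3 CPM in wild type.

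Counting the equal alpha rows once, 7 of the 8 genes were highest in W2 and next highest in W3. Of all 13832 genes tested, 640 (4.63%) were highest in W2. Since the genes were picked for W2, nothing is read from the first count.

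Levels of different genes were compared only per kilobase of merged exons (GENCODE M21). On that scale Hbb-bs had a median of 3875 CPM per kb over the 12 hearts, Hbb-bt 2570 and Hba-a1 1842. Alas2 followed at 25.4, Fech at 20.2, Bpgm at 11.4, Slc25a37 at 5.34 and Isg20 at 1.47 CPM per kb. The order of neighbours held in 12 of 12 hearts except for Alas2 over Fech and Fech over Bpgm, each in 11 of 12: Fech was above Alas2 in K10, and Bpgm was above Fech in W2. Alas2 and Fech did not differ beyond their spread over hearts, at 16.8 to 84.8 and 17.9 to 21.8 CPM per kb. The order was counted in single hearts with the exon length of Hba-a1 and not with that of Hba-a2. The level of the alpha row depends on the exon length used. With the 699 bases of Hba-a1 it averaged 1732 CPM per kb in knockout hearts and 3073 in wild-type hearts, and with the 554 bases of Hba-a2 it averaged 2185 in knockout hearts and 3877 in wild-type hearts. Hbb-bt averaged more in both groups, at 2562 CPM per kb in knockout hearts and 4223 in wild-type hearts.

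The plots of each gene against Hbb-bs separate the genes that followed the globins from heart to heart from those that did not. On log2 CPM after TMM scaling, Pearson's r with Hbb-bs over the 12 hearts was 0.98 for Hba-a1, 0.99 for Hbb-bt, 0.97 for Alas2 and 0.98 for Bpgm, and Spearman's rho was 0.83, 0.97, 0.79 and 0.87 for the same genes. Without W2 and W3, the hearts farthest out, r over the other 10 was 0.89 for Hba-a1, 0.97 for Hbb-bt, 0.84 for Alas2 and 0.90 for Bpgm. For Slc25a37 and Isg20 the relation rested on W2 and W3, since r was 0.70 and 0.75 over 12 hearts but -0.10 and -0.07 without those hearts. Fech showed no such relation, with r of 0.14 over 12 hearts and -0.47 over 10. The hearts share their library total across genes, and these correlations are descriptions, because the genes were chosen for the heart that sets them. For Hbb-bt the uncertain split of reads between the beta copies also bears on r.

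A straight line on CPM through the 11 hearts without W2 was carried out to the Hbb-bs level of W2. It gave 5224 CPM for Hba-a1, where 5410 CPM was measured, and 188.7 CPM for Alas2, where 172.8 CPM was measured. For Bpgm the line gave 62.1 CPM against 61.5 CPM measured, and for Hbb-bt it gave 8613 CPM against 7013 CPM measured, 0.814 of the line. As measured over line, W2 stood at 1.04 for Hba-a1, 0.916 for Alas2 and 0.989 for Bpgm, and further below the line for Hbb-bt. Slc25a37 was measured at 30.2 CPM in W2 with 34.0 CPM on the line, Isg20 at 6.60 CPM with 6.61 CPM, and Fech at 144.0 CPM with 131.5 CPM. Of the hearts behind the lines, W3 reached farthest, at 4987 CPM of Hbb-bs, well short of W2. The lines of Slc25a37 and Isg20 leaned on W3, since r without W2 and W3 was -0.10 and -0.07.

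The intercept of the same line is the level extrapolated to a heart without Hbb-bs reads. As a share of the mean over the 11 hearts it was -1.17% for Hbb-bt, 13.4% for Hba-a1, 26.3% for Alas2, 50.9% for Isg20, 59.5% for Bpgm, 83.0% for Slc25a37 and 102.3% for Fech. In absolute terms it was 15.7 CPM with a standard error of 1.21 for Bpgm, 14.3 CPM with a standard error of 5.84 for Alas2, and 179.3 CPM with a standard error of 118.7 for Hba-a1. The slopes were 446.9 CPM of Hba-a1, 765.1 CPM of Hbb-bt, 15.4 CPM of Alas2 and 4.11 CPM of Bpgm per 1000 CPM of Hbb-bs.

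**Figure D2:**
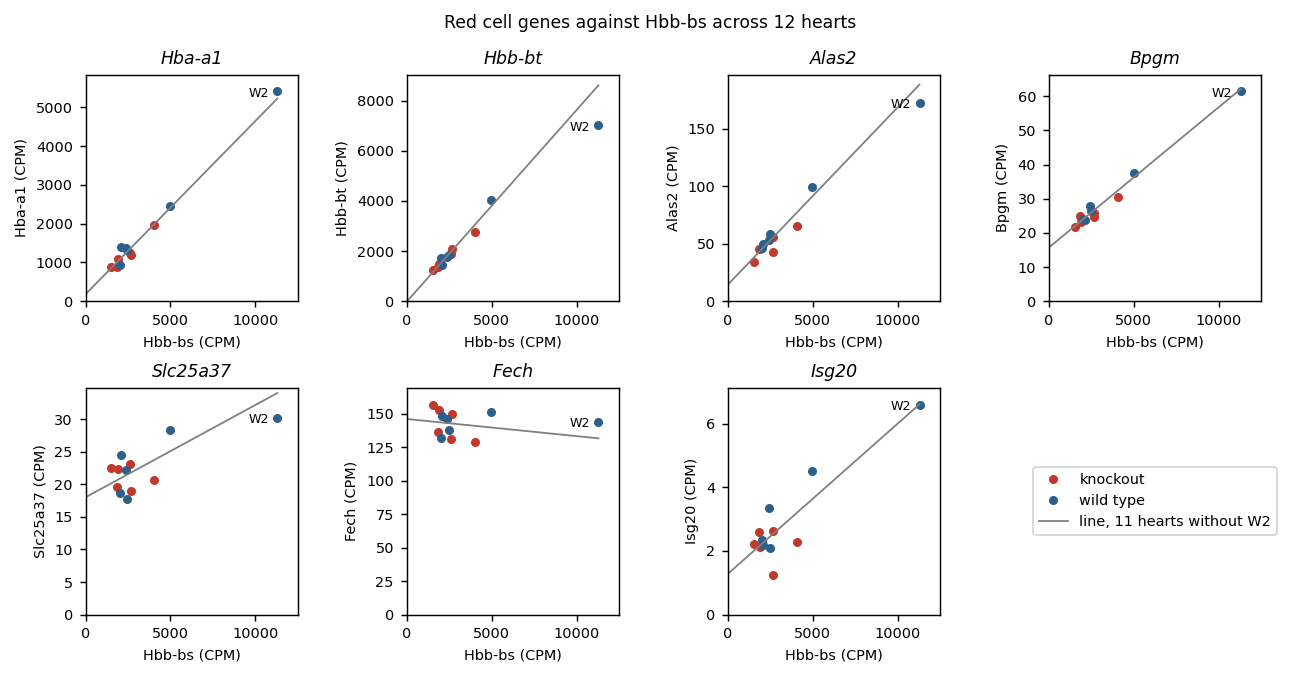
Each red cell gene (CPM, vertical axis) against Hbb-bs (CPM, horizontal axis) in 6 knockout hearts (red) and 6 wild-type hearts (blue); the grey line is a least-squares fit to the 11 hearts without W2. Hba-a1, Alas2 and Bpgm in W2, at 5410, 172.8 and 61.5 CPM, lie near the extended line, and Fech shows no slope.

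The comparison of genotypes asks which transcripts of the heart differ once its myocytes lack NBCe1. In edgeR's quasi-likelihood test over all genes, 0 of 13832 genes passed an adjusted p of 0.05 (0%), 562 had an unadjusted p under 0.05, DESeq2 called 11 and limma-voom 0. None of the 9 red cell genes was called. Their log2 fold changes, knockout over wild type, were -0.85 (standard error 0.33) for Hba-a1, -0.82 (0.36) for Hbb-bs, -0.74 (0.32) for Hbb-bt and -0.75 (0.27) for Alas2. For the remaining genes they were -0.43 (0.20) for Bpgm, -0.71 (0.30) for Isg20, -0.17 (0.13) for Slc25a37 and -0.01 (0.07) for Fech. All 8 were negative, with a median of -0.73, beside 49.4% negative and a median of 0.00 over all genes tested. An unadjusted p under 0.05 with a lower level in knockout was found for 6 of the 8, beside 2% of all genes. These counts include W2, whose values chose the genes, so nothing is read from them.

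The values of W2 drew notice to the genes, and the fold changes over the other 11 hearts are given beside those above. W2 was high against these hearts, and the genes were chosen with earlier results known, so these values are a description too. Leaving out the highest heart of a group lowers the mean of that group whatever the cause. In the edgeR test over these 11 hearts, 0 of 13932 genes passed (0%), 629 had an unadjusted p under 0.05, DESeq2 called 19 and limma-voom 0. The fold changes were -0.31 (standard error 0.21) for Hba-a1, -0.20 (0.23) for Hbb-bs, -0.26 (0.23) for Hbb-bt and -0.35 (0.18) for Alas2. They were -0.15 (0.13) for Bpgm, -0.42 (0.28) for Isg20, -0.07 (0.12) for Slc25a37 and -0.0043 (0.07) for Fech. The lowest adjusted p among them was 0.995, and 0 of 8 had an unadjusted p under 0.05, where 2.22% of all genes did so with a lower level in knockout. The smallest unadjusted edgeR p was 0.0666, for Alas2. The median of the 8 was -0.23, with all 8 negative beside 51% of all genes. Several of the 8 moved together from heart to heart, so nothing is read from that count.

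W3, the next heart in globin level, bore on what was left. With W3 also left out, 4 of the 8 genes were lower in knockout and their median was 0.01, with Hbb-bs at 0.13 and Hbb-bt at 0.10. With K7 left out in place of W3, the median was -0.42. None of the 9 genes was called at an adjusted p of 0.05 in any of 21 settings that began from 12 hearts, 1 of which leaves out W2, or 20 that began from the 11 hearts without it.

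**Figure D3:**
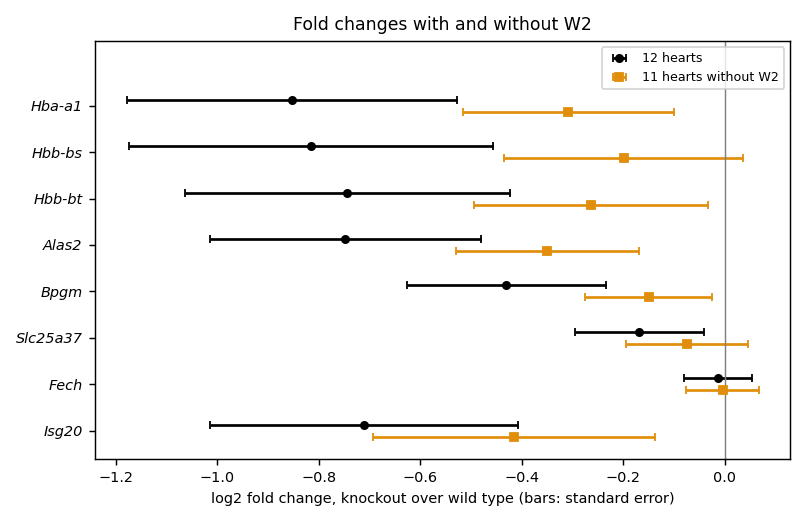
Log2 fold change of each red cell gene, knockout over wild type, with its standard error, over 12 hearts (black circles) and over the 11 hearts without W2 (orange squares). Hba-a1 stands at -0.85 with W2 and -0.31 without it, and Fech stands near 0 in both.

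Other genes of red cells were followed in 4 lists, of membrane and cytoskeleton, of red cell maturation, of haem synthesis and of iron and haem transport, with 61 genes in the table and 46 tested. None was called, 5 had an unadjusted edgeR p under 0.05 and all of these were lower in knockout, where 2% of all genes were so. Without W2 there were 6, of which Tfrc, the transferrin receptor, at 0.50, and Alas1, the synthase of other tissues, at 0.17, were higher in knockout. The median log2 fold change of the 46 genes was -0.04, or -0.02 without W2. Of the 46 genes, 19 were higher and 27 lower in knockout. The heat map of these lists shows a few rows that share the W2 and W3 pattern of the globins amid many that do not.

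In the maturation list, with 14 genes tested, 5 were higher and 9 lower in knockout, 3 of them at an unadjusted p under 0.05, and 1 without W2. Ube2l6, a conjugating enzyme of the ubiquitin-like protein ISG15, had 12.7, 12.8, 16.6, 11.2, 10.5 and 10.2 CPM in knockouts K7 to K12, against 15.2, 41.8, 22.3, 15.9, 13.5 and 10.8 CPM in wild-type hearts W1 to W6. W2 and W3 were the highest hearts, and the log2 fold change was -0.71 (SE 0.26, edgeR adjusted p = 0.999), or -0.34 (SE 0.17) without W2. Mkrn1, a ubiquitin ligase, averaged 24.0 ± 3.11 CPM in knockout and 30.2 ± 4.19 CPM in wild type (SD, n = 6 each), with a log2 fold change of -0.34 (SE 0.11, edgeR adjusted p = 0.999). The regulators of red cell formation Klf1 and Gata1 had at most 5 reads in any heart.

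Among 13 membrane genes tested, 7 were higher and 6 lower in knockout, none at an unadjusted p under 0.05. Slc4a1, the anion exchanger band 3 of red cells, had 3.06, 2.20, 0.847, 1.21, 1.01 and 1.16 CPM in knockouts K7 to K12, against 1.29, 4.80, 2.58, 1.14, 1.32 and 1.56 CPM in wild-type hearts W1 to W6. Its top hearts were W2, K7 and W3, and W2 lay 3.73 times above the median of the others. Several proteins of the red cell skeleton are also made in heart muscle, and the ankyrin gene Ank1 was high in every heart, at 353.8 ± 28.1 CPM in knockout and 330.3 ± 42.8 CPM in wild type. Gypc, the glycophorin C gene, averaged 52.2 ± 9.71 CPM in knockout and 46.4 ± 5.67 CPM in wild type.

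Membrane genes more restricted to red cells were near the limit of detection. Epb42, the protein 4.2 gene, had 6 reads over the knockouts and 32 over the wild types, 13 of them in W2. Kel, a blood group antigen gene, had 8 reads, all in W2. Other genes of the list did not follow W2: Ermap had 30 reads over the knockouts and 6 over the wild types, 1 of them in W2, Rhag had 11 and 12 reads over the same groups, and Add2 had 25 and 54. Rhag, Add2 and Tspo2 had 0 reads in W2, and Tspo2 had 3 reads over the knockouts and 1 over the wild types. These genes were too rare to be tested.

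**Figure D4:**
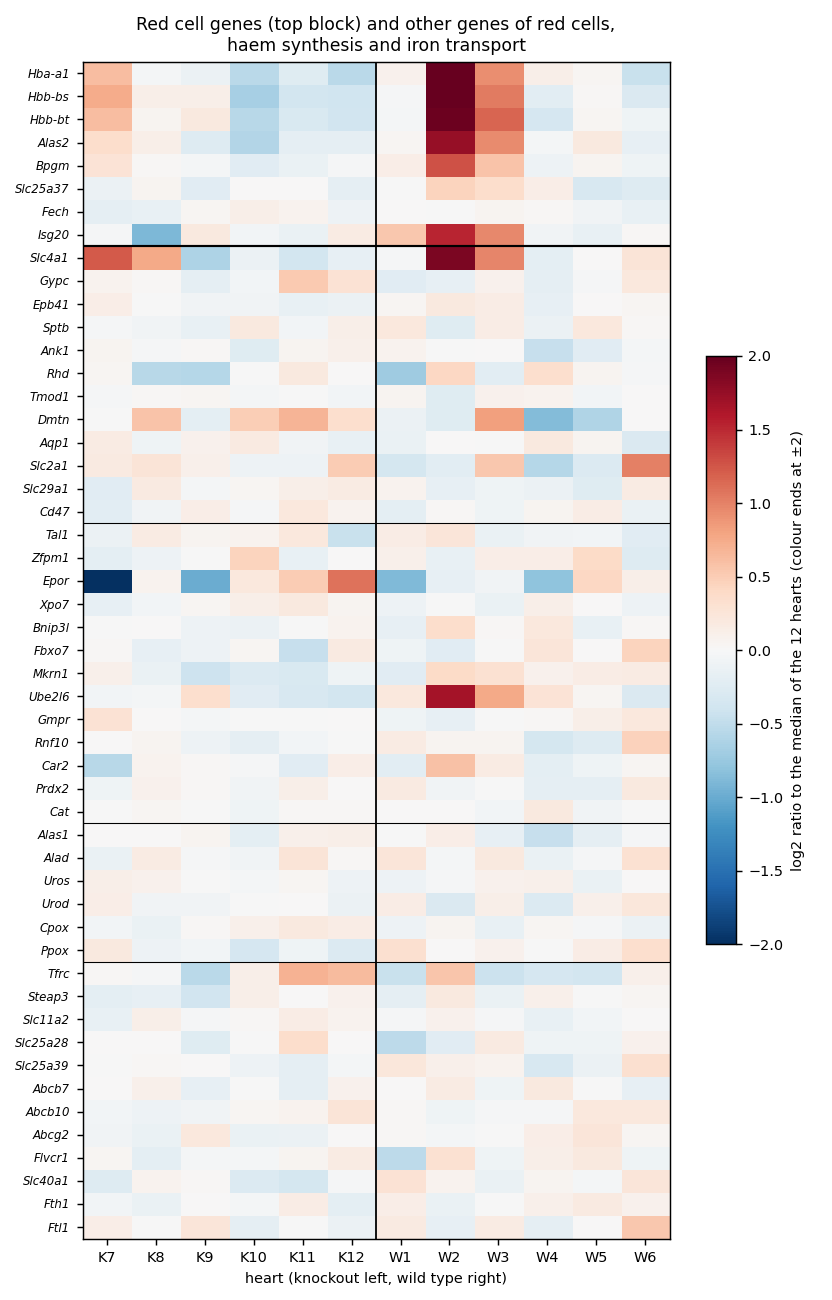
Heat map of the 8 separate red cell gene rows (top block) and of 43 other genes of membrane, maturation, haem synthesis and iron transport (blocks below), as the log2 ratio to the median of the 12 hearts, with knockouts left and wild types right. The W2 column is red for 7 of the 8 rows of the top block and for Slc4a1 and Ube2l6 below it, while most other rows stay pale.

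Relations of other genes to Hbb-bs are given as descriptions too, because W2, whose values chose the red cell genes, is among the 12 hearts and sets much of them. On the same log2 scale Epb41, the protein 4.1 gene, had r = 0.88 and rho = 0.83, Slc4a1 had r = 0.88 and rho = 0.64, and Ube2l6 had r = 0.91 and rho = 0.78 over 12 hearts. Without W2 and W3, r was 0.75 for Epb41, 0.67 for Slc4a1 and 0.48 for Ube2l6, so the relation of Ube2l6 rested largely on those hearts. Within the knockouts r was 0.85, 0.71 and 0.59 for the same genes, and within the wild types 0.89, 0.97 and 0.97, in each case over 6 hearts.

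Of the other 7 haem synthesis genes, all tested, 4 were higher and 3 lower in knockout, with none called. The smallest p belonged to Ppox, protoporphyrinogen oxidase, at 12.2 ± 1.64 CPM in knockout and 14.5 ± 1.56 CPM in wild type. Among 12 iron and haem transport genes 3 were higher and 9 lower in knockout with none called. Slc40a1, the iron exporter ferroportin, averaged 67.0 ± 8.24 CPM in knockout and 77.7 ± 8.61 CPM in wild type, and Fth1, the ferritin heavy chain, 573.6 CPM in knockout and 616.4 CPM in wild type. Of 6 haem breakdown genes 4 were higher and 2 lower with none called. Hmox1, the inducible haem oxygenase, averaged 3.28 ± 0.646 CPM in knockout and 4.53 ± 1.11 CPM in wild type, and Blvrb, biliverdin reductase B, 5.74 CPM in knockout and 5.25 CPM in wild type.

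Markers of the other cells of blood were read beside the globins. The sum over 10 platelet genes ran from 13.6 to 38.2 CPM in knockout and from 11.7 to 52.1 CPM in wild type, and its highest hearts were W3 at 52.1 and W2 at 45.5 CPM. Ppbp, a platelet chemokine, had 16.7, 19.2, 6.02, 7.60, 2.66 and 4.91 CPM in knockouts K7 to K12, against 2.35, 25.3, 30.0, 14.1, 15.7 and 3.82 CPM in wild-type hearts W1 to W6. Itga2b, a subunit of the fibrinogen receptor of platelets, averaged 1.55 ± 0.602 CPM in knockout and 2.81 ± 1.52 CPM in wild type. Its highest hearts were also W3 at 4.67 and W2 at 4.05 CPM. Tubb1, of the same list, likewise had W3 at 4.91 and W2 at 4.50 CPM as its highest hearts. Ppbp made up much of the list's sum, and Pf4, another platelet chemokine, did not share its order, with 4.47, 4.76, 4.89, 5.75, 6.15 and 2.59 CPM in knockouts K7 to K12, against 2.50, 3.23, 5.39, 7.13, 4.18 and 5.29 CPM in wild-type hearts W1 to W6. Gp1bb was highest in K8 at 3.26 CPM and Gp1ba in K12 at 4.82 CPM. Among platelet genes too rare to test, Gp9 and Gp5 were highest in W2, at 18 and 19 reads. Gp6 was highest in W4 at 8 reads and Treml1 in K8 at 9 reads. Of the 6 platelet genes tested 2 were higher and 4 lower in knockout, with none called. Their part in the globin levels was not tested.

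White cell lists were read in the same way. Summed over 9 neutrophil genes the level was 41.2 to 55.7 CPM in knockout and 41.0 to 60.9 CPM in wild type, with W2 at 47.6 CPM. Lcn2, the granule protein lipocalin-2, and Csf3r, the receptor of a granulocyte growth factor, averaged 2.53 and 10.5 CPM in knockout and 3.23 and 10.9 CPM in wild type. In W2 Cxcr2, at 30.0 CPM, and Csf3r, at 10.4 CPM, made up most of the neutrophil sum. That sum thus says little of the rarer genes of the list. S100a8, a granule protein gene, had 32, 13, 0, 1, 0 and 6 reads in knockouts K7 to K12, against 4, 38, 13, 18, 3 and 1 reads in wild-type hearts W1 to W6, and its highest hearts were W2 and K7. S100a9 had the same hearts at the top in the other order, with 29 reads in K7 and 10 in W2. The rest of the list did not have that pair alone at the top. For Mmp8 K7 had 11 reads and W2 and K8 had 7 each, and for Retnlg K7 had 4 and W2 and W4 had 3 each. Ngp and Camp had 0 reads in W2 and 8 and 9 in K7. W2 ranked 6 of 12 for Lcn2, 9 for Cxcr2 and 10 for Csf3r. For 10 lymphocyte genes the sum was 11.5 to 18.4 CPM in knockout and 13.6 to 25.1 CPM in wild type, with W3 highest and W2 at 17.0 CPM. Ptprc alone made up 11.1 CPM of the lymphocyte sum in W2. Ptprc, the leukocyte antigen CD45, averaged 10.7 ± 1.28 CPM in knockout and 14.4 ± 4.18 CPM in wild type, and the B cell gene Ms4a1 0.751 CPM in knockout and 1.04 CPM in wild type. With Hbb-bs over 12 hearts Ms4a1, a rare transcript at 0.178 CPM in K12, had r = 0.66 and rho = 0.79, beside r = 0.67 and rho = 0.72 for Ppbp. The other white cell genes tested had lower values. For Ptprc r was 0.18 and rho 0.40, and for Lcn2 they were 0.43 and 0.59. For Csf3r they were -0.14 and -0.15, and for Cxcr2 0.07 and 0.01. None of the 3 neutrophil and 2 lymphocyte genes tested was called, and all 5 were lower in knockout.

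The defining genes of heart tissue were present in every library. Summed over 7 cardiac myocyte genes the level was 44205 to 47242 CPM in knockout and 43365 to 49474 CPM in wild type, with W2 lowest. Myh6 averaged 16160 CPM in knockout and 17334 CPM in wild type, and Pln 8816 CPM in knockout and 8267 CPM in wild type. The endothelial sum was 631.3 to 692.2 CPM in knockout and 569.4 to 672.6 CPM in wild type, again with W2 lowest, with Tek at 81.2 CPM in knockout and 76.0 CPM in wild type and Cdh5 at 290.8 CPM in knockout and 277.9 CPM in wild type. Of these 11 genes 6 were higher and 5 lower in knockout, with none called.

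**Figure D5:**
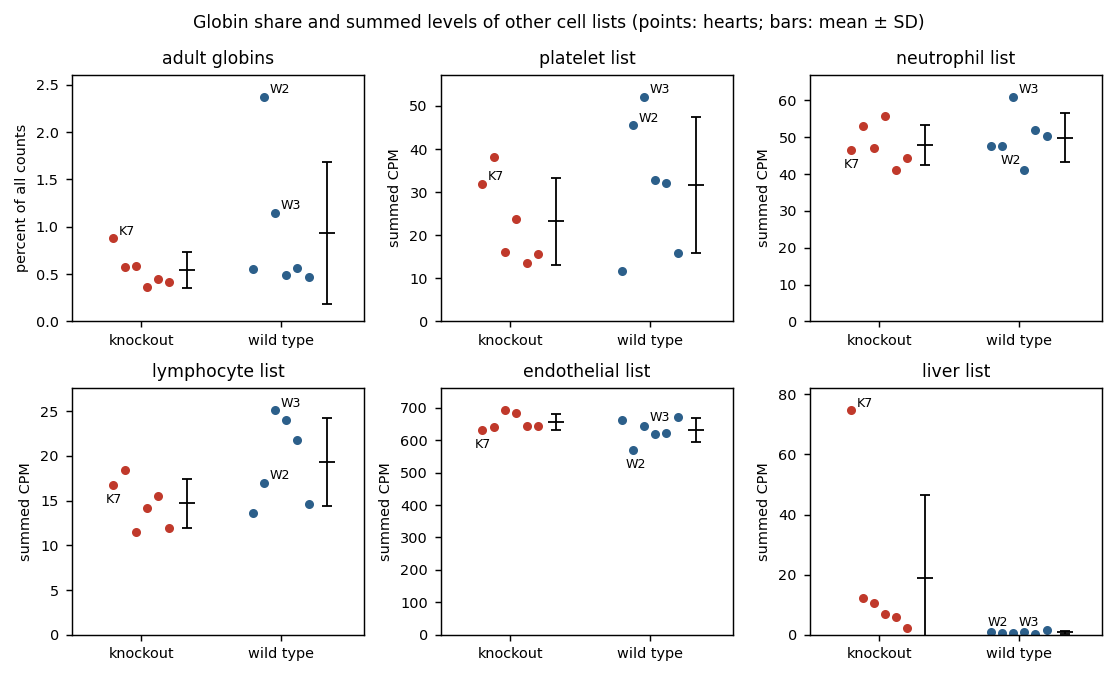
Share of adult globin counts (percent) and summed levels of 5 marker lists (CPM) in knockout hearts (left, red) and wild-type hearts (right, blue); each point is a heart, and the bars give the mean and SD of 6 hearts, cut at 0 in the liver panel. W2 leads the globin share at 2.37%, W3 leads the platelet sum at 52.1 CPM, and K7 leads the liver sum at 74.7 CPM.

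The genes most like Hbb-bs were sought among 12837 genes that averaged 1 CPM or more. With 12 hearts the 10 highest values of Pearson's r included those of Ube2l6 (0.91), Prkx (0.90), Epb41 (0.88), Slc4a1 (0.88), Tmem186 (0.87), Pabpc1 (0.86), Vipas39 (0.83), Cd24a (0.81) and Rpl41 (0.81). With 11 hearts they belonged to Ssr2 (0.88), Clip1 (0.88), Rpl31 (0.87), Ccnl2 (0.86), Vps28 (0.85), Mtg1 (0.85), Rps19 (0.85), Elf2 (0.85), Ddx58 (0.85) and Fau (0.85). The sets shared 0 genes, and Elf2, at 0.76, had the highest r of the second set over 12 hearts. Of the first set, Epb41, Rpl41 and Prkx had r of 0.83, 0.83 and 0.82 over 11 hearts, just under the 0.85 of the last gene of the second set. Hba-a1, Hbb-bt, Alas2 and Bpgm kept r of 0.94, 0.98, 0.91 and 0.94 with Hbb-bs over the 11 hearts.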

How the data were processed

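Whole-heart total RNA of 12 mice was sequenced, per the labels and the series design text, on a HiSeq 1000, and groups were taken from the labels. The authors deposited 1 table of raw counts, the number of reads assigned to each gene in each heart. The submitters' processing notes list TopHat, DESeq, bcl2fastq, CASAVA 1.8 and the mm10 build. Which program and annotation did the counting, and how strand and reads with several matches were handled, the sources used here do not say. Names came from RefSeq GRCm38.p6, the same build, for 23976 of 24061 identifiers, and exon lengths and coding sequences from GENCODE M21. A chi-square test of counts gave 6.37 to 41.7 per degree of freedom in the 66 library pairs, so no library was a repeat of another.

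CPM are counts scaled to a library total of 1000000. Correlations used log2 CPM with TMM scaling and a prior count of 2. The counts were tested in R 4.3.3 with edgeR 4.0.16: filterByExpr (minimum count 10, minimum total 15), TMM scaling, and a quasi-likelihood F test of knockout against wild type with Benjamini-Hochberg adjustment at 0.05 over all genes, once with 12 hearts and once without W2. Fold changes are on the log2 scale with standard errors derived from the F statistic. Named are all 9 genes, the 2 genes of each list with the smallest unadjusted p where none was called, the 10 genes most like Hbb-bs with and without W2 (predicted names left out), and Slc4a4; other named list genes were chosen after their values were seen. The members and lists were chosen with earlier results of these data known. A few genes picked by this rule are left out of the text. The listed genes Ahsp and Ighm were not analysed here. Alternatives were DESeq2 1.42.0, limma-voom (limma 3.58.1), other scalings, filters and thresholds, and each library left out. The scripts were tested on simulated counts. Plots were drawn with matplotlib 3.10.9.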

Additional observations from a re-analysis of the deposited data

Results flagged for a closer look

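In sets of 6 hearts of a group, a heart was marked when its gap to the nearest of the others was too large a part of the range of the group by Dixon's test for 6 values. Of 120 sets examined, 15 held such a heart, and chance alone marks about 1 set in 20, or 6. The sets include genes chosen for high values in W2 or for likeness to Hbb-bs, so nothing is read from that count.

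Among the red cell genes, K7 was marked in knockout for Hba-a1 at 1971 CPM and K8, as the lowest heart, for Isg20 at 1.23 CPM. In wild type W2 was marked for Hba-a1 at 5410 CPM, Hbb-bs at 11287 CPM, Bpgm at 61.5 CPM and the globin share at 2.37%. Hbb-bt and Alas2 in W2 were not marked, their gap between W2 and W3 being a smaller part of the range.

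Among other genes, the knockout hearts marked were K7 for Alb at 62.2 CPM and Rps19 at 52.0 CPM, and K11 for Blvrb at 10.8 CPM. In wild type W2 was marked for Ube2l6 at 41.8 CPM, Cd24a at 16.6 CPM and Pabpc1 at 356.7 CPM, and as the lowest heart for Vps28 at 9.83 CPM. W3 was marked for Ddx58 at 39.8 CPM and Fau at 22.9 CPM.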

How the results depend on the processing

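Of 415 values under alternative settings, 398 were taken as the same and 17 as moved. A fold change or median was the same when it shifted by less than the SD between hearts, whatever its sign. A count of genes was the same when it was equal or, with neither count at 0, close in ratio. Hbb-bs without W2, at -0.20, thus counts as the same as 0.13 with W3 also left out. W2 widens the SD over 12 hearts, and Hbb-bs at -0.82 with W2 and -0.20 without it also counts as the same. The count of genes called with 12 hearts was 0, and it was 3 at an adjusted p of 0.1, 11 with DESeq2, 16 with no count filter and 0 to 2 with each heart left out in turn. Without W2 it was 0, and it was 19 with DESeq2, 18 with no count filter and 0 to 1 with a further heart left out. None of these calls was 1 of the 9 red cell genes. The median of the 8 genes, -0.73, ran from -0.84 to -0.23 with each heart left out, and the value of -0.23 was that without W2. Without W2 it ran from -0.42, without K7, to 0.01, without W3. Limma-voom gave -0.53 with W2 and -0.19 without it. The median of the other red cell genes, -0.04, ran from -0.06 to -0.02. Of the 10 genes most like Hbb-bs, 0 remained without W2 and 8 with scaling by library totals only. The cause of the changes between tools was not tested. No paired analysis was possible because the groups share no replicate numbers, the knockouts being numbered 7 to 12 and the wild types 1 to 6. Depth limited Isg20, at 14 to 88 reads per heart, and Epb42 and Kel, which were too rare to test.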

Other observations

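Alb, the serum albumin gene of liver, had 62.2, 9.78, 9.69, 4.45, 4.13 and 1.34 CPM in knockouts K7 to K12, against 0.303, 0.300, 0, 0.440, 0 and 1.13 CPM in wild-type hearts W1 to W6. Every knockout lay above every wild type, with an edgeR adjusted p of 0.083. W2, the highest heart for globins, stood at 0.300 CPM. Within the 6 knockouts K7 was highest for both Alb and Hbb-bs, and r between them was 0.89 on the log2 scale. That relation was not seen elsewhere: r was -0.18 over all 12 hearts, 0.005 without W2 and -0.27 within the wild types.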
